A study of Mus musculus with 13 samples.

Results

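The genes described here are receptors and co-receptors of the Fgf, Egf, Hgf and neurotrophic families with many of their ligands, the Pdgf ligands without their receptors, the receptor tyrosine kinases Axl, Ddr1 and Ddr2, the Fgf binding protein Fgfbp1, the intracellular homolog Fgf13, and feedback inhibitors of receptor tyrosine kinase signalling. They were chosen by symbol from a list of 46 genes, and all 46 are among the 21100 genes of the count table. Of these, 44 had a value in all 13 tumors and 41 had enough counts to be tested. RNA of mouse basal cell carcinoma (BCC) was compared between 2 models, 9 tumors of a genetically engineered model (GEM-BCC) and 4 tumors of a transplantable model (Tp-BCC). The question was how the transcriptome of transplanted tumors differs from that of tumors induced in the skin.

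GEM-BCC tumors arose intradermally in female Ptch1+/- K14-CreER2 p53fl/fl mice that received 3 intraperitoneal injections of 300 µg tamoxifen and 1 X-ray dose of 4 Gy, given over 2.05 min. Cre in these mice, which the paper spells CreERT2, is driven by the promoter of keratin 14, so p53 is deleted in keratin 14-expressing cells. Tp-BCC tumors grew under the skin of the right flank of female Ptch1+/-p53fl/fl hosts after inoculation of 2000000 tumor cells. All 4 Tp-BCC tumors descend from a single GEM-BCC tumor, so they sample 1 tumor line and not 4 independent tumors. The genotype given for the hosts names no Cre. The 9 GEM-BCC tumors came from 7 mice, with GEM2 and GEM3 from 1 mouse and GEM7 and GEM8 from another. GEM-BCC libraries formed batch 1 and Tp-BCC libraries batch 2, so a difference between models and a difference between batches cannot be told apart.

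Receptor tyrosine kinases are cell surface receptors that dimerize when a ligand binds, phosphorylate each other and pass the signal through adaptors, Ras, Raf, Mek and Erk. In skin, Fgf and Egf family signals act between mesenchyme and epithelium and steer hair follicle growth and keratinocyte proliferation. Neurotrophic ligands of the Gdnf family bind a Gfra co-receptor, and the pair signals through Ret. Sprouty, Spred and Dusp proteins dampen the pathway, and several of them are themselves induced by Erk.

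Each GEM-BCC library held 28075317 to 32629102 expected counts, and each Tp-BCC library 15388027 to 17494912. Values are given as CPM, counts scaled to equal library size with TMM factors, and log2 CPM carries a prior count of 2. Tp-BCC tumors differed among themselves in how their values followed GC content. Across tested genes, which are not independent replicates, the Spearman rho between GC content of the transcripts and the deviation of log2 CPM from the gene mean was −0.389 in TP1 and −0.473 in TP3, against 0.594 in TP2 and 0.591 in TP4. In GEM-BCC it was 0.365 for GEM1 and between −0.312 and −0.150 for the remaining tumors. Fits without TP2 and TP4, and fits without TP1 and TP3, were therefore added after the data were seen. Their values are given where a call ended or the fold moved by over 1.5 times, and those with GC correction as well where only they ended a call. A gene passed where its adjusted p was under 0.05 in edgeR's quasi-likelihood test with Benjamini-Hochberg adjustment. The ranges of adjusted p over alternatives include fits with a replicate block. That block groups tumors that share a tumor number, which does not pair them in any known way. Fgf1, Fgf2, Fgfr4, Gdnf, Ntrk2, Pdgfra, Dusp5 and Myc missed the threshold in fits with this block alone.

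Markers of the labelled tissue were present in every tumor. Summed over 6 basal keratinocyte markers, of which Krt5 was the most abundant, the level was 8092 to 13988 CPM in GEM-BCC (median 11329) and 6490, 11793, 5949 and 14616 CPM in TP1 to TP4. Of the 6, Col17a1 passed higher. Without TP2 and TP4 0 passed higher in edgeR (1 by unadjusted p) and 1 lower, and there was 1 lower with GC correction and 2 lower without TP1 and TP3. With both TP2 and TP4 left out and GC correction 0 passed in edgeR (3 by unadjusted p). Genes of several other lists passed as well, where 11.1% of all tested genes passed higher and 8.35% lower. The 5 adipocyte markers, led by Fabp4, summed to 0.3999 to 3.26 CPM in GEM-BCC (median 0.986) and to 10.8, 84.3, 10.7 and 15.1 CPM in TP1 to TP4, and the 3 tested, Adipoq, Fabp4 and Cidec, were higher. Cidec had at most 2 counts in GEM-BCC and reached 10 counts in Tp-BCC tumors alone, so its call is set in part by the filter. With DESeq2 1 of these 3 was higher, and with edgeR 1 of 2 tested without TP2 alone and 1 of 2 without TP2 and TP4, with or without GC correction. Without a filter 5 of 5 were higher, and with a stricter one 1 of 1. The 6 endothelial markers, led by Cdh5, summed to 84.6 to 216 CPM in GEM-BCC (median 165) and to 321, 373, 322 and 302 CPM in Tp-BCC, and 4 of 6 were higher (Cdh5, Kdr, Tie1 and Emcn). The count of higher ones was 3 when any 1 tumor other than GEM5 or TP2 was left out. It was also 3 without TP2 and TP4 (with or without GC correction) and without TP1 and TP3. Library size alone, a stricter filter and counts summed per mouse gave 3 as well. For 9 suprabasal keratinocyte markers, led by Dsg1a, 3 of 8 tested were lower (Dsc1, Dsg1a and Krt10), with sums of 146 to 540 CPM in GEM-BCC (median 296) and of 87.9, 64.8, 104 and 59.5 CPM in TP1 to TP4. That count was 5 with DESeq2, 1 without TP2 and TP4, with or without GC correction, and 1 without TP1 and TP3 with GC correction. Among 8 markers of the inner layers of the hair follicle, led by Krt75, 3 of 6 tested were lower (Krt71, Krt73 and Krt75), with sums of 18.7 to 303 CPM in GEM-BCC (median 59.8) and of 4.41, 5.79, 3.95 and 5.78 CPM. A stricter filter left 3 of them to test, of which 1 was lower. Without TP2 and TP4, with or without GC correction, 2 were lower. There were 4 lower without TP1 and TP3 (with or without GC correction), without GEM1 or GEM2, with DESeq2, with GC correction or with counts summed per mouse. The 5 skeletal muscle markers, led by Acta1, of which 0 of 1 tested passed with edgeR or DESeq2 (1 by unadjusted p in each), reached 118 CPM in TP4 and 8.29 CPM in TP2, with the other tumors at or below 2.18 CPM. The tested one passed higher without TP3 and without TP1 and TP3, with or without GC correction, and without a filter 3 of 5 passed higher (5 by unadjusted p). Of 8 Schwann cell markers, led by Mbp, 0 of 5 tested passed with edgeR or DESeq2 (0 by unadjusted p in each), and they summed to 7.33 to 52.1 CPM in GEM-BCC (median 22.5) and to 13.9 to 17.9 CPM in Tp-BCC. Without TP1 there was 1 lower, and without TP1 and TP3 there were 2 (1 with GC correction), while without a filter 1 of 7 was higher. Foxd3 had 0 counts in all GEM-BCC tumors and no value in Tp-BCC. Of 8 fibroblast markers, led by Col1a2 and with Pdgfra among them, 3 were higher (Fbln1, Pdgfra and Thy1) and 1 lower (Col1a1), with sums of 12333 to 49230 CPM in GEM-BCC (median 28717) and of 16095, 24121, 16290 and 29152 CPM in TP1 to TP4. The count of higher ones was 2 without TP2 alone or TP4 alone and 1 without TP2 and TP4, with or without GC correction. The count of lower ones was 2 with GC correction and 0 in edgeR (1 by unadjusted p) without GEM2, any of GEM5 to GEM9, any of TP1 to TP3, or TP1 and TP3, with counts summed per mouse or with a stricter filter, and 1 with DESeq2.

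Of 5 neutrophil markers, led by Csf3r, 2 of 3 tested were lower, with sums of 0.758 to 8.01 CPM in GEM-BCC (median 2.62) and of 1.00, 1.03, 1.68 and 2.14 CPM in TP1 to TP4. These were S100a8 and S100a9, at least 4.33-fold and 4.32-fold lower in mean CPM with a floor of 3 counts per library. Their count was 1 without GEM2, GEM7, GEM8 or TP4 or with counts summed per mouse, and 0 in edgeR without TP1, TP2 or TP3, without TP2 and TP4 (with or without GC correction) or with GC correction alone (2 by unadjusted p in each), and 2 with DESeq2. It was 0 as well without TP1 and TP3 (1 by unadjusted p, and 0 with GC correction), and a stricter filter left 1 gene to test. Of 6 macrophage markers, led by Csf1r, 1 was higher, Cd68, with sums of 46.3 to 248 CPM in GEM-BCC (median 100.3) and of 145, 176, 137 and 297 CPM in TP1 to TP4. There were 2 without GEM6, and 0 in edgeR without TP2 or TP4 (1 by unadjusted p in each) or without both, with or without GC correction (0 by unadjusted p), and 1 with DESeq2. Of 6 pericyte and smooth muscle markers, led by Cspg4, 1 was higher, Pdgfrb, with sums of 949 to 1780 CPM in GEM-BCC (median 1404) and of 1024, 1724, 1041 and 1903 CPM in TP1 to TP4. That was 0 in edgeR without TP2 and TP4 (2 by unadjusted p), and without TP1 and TP3 there was 1 lower as well.

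Sebaceous gland, melanocyte and T cell markers, led by Soat1, Mitf and Cd4, had 0 of 3, 0 of 3 and 0 of 1 tested past the threshold in edgeR (0, 1 and 0 by unadjusted p) and 0, 1 and 0 with DESeq2. Their sums were 25.4 to 69.3, 4.14 to 20.8 and 0.428 to 3.80 CPM in GEM-BCC and 36.7 to 44.3, 2.21 to 7.30 and 1.06 to 1.86 CPM in Tp-BCC. Tyr had 0 counts in all GEM-BCC tumors and no value in Tp-BCC. With counts summed per mouse 1 sebaceous gland marker was lower, and without TP1 and TP3 with GC correction 1 was higher. Without TP1 and TP3, with or without GC correction, 1 melanocyte marker was lower, and without a filter 1 was higher. Of all tested genes 38 reached 10 counts in Tp-BCC tumors alone, of which 38 passed, and 604 did so in GEM-BCC tumors alone, of which 242 passed. Among the markers that were lower, Dsc1, Krt73, Krt75, S100a8 and S100a9 are of the second kind, so their calls too are set in part by the filter. The part of these cells in the results that follow was not tested. In bulk tumor RNA, fewer cells of a type and less RNA per cell cannot be told apart.

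Of the 41 tested members, 5 passed higher in Tp-BCC (Fgf2, Fgfr4, Gfra1, Gdnf and Spred2), against 11.1% of all 14390 tested genes, and 7 passed lower (Fgf1, Fgf13, Tgfa, Pdgfc, Met, Ntrk2 and Gfra3), against 8.35%. With a log2 fold change beyond 2 in size as well, 4 members remained higher (background 2.36%) and 5 lower (3.21%). Tumors of the models did not overlap in 5 members that were higher (background 5.50%) and 5 that were lower (4.45%). The median log2 fold change of the 41 was 0.01, beside −0.03 over all tested genes. In the plots and text, fold changes run from GEM-BCC to Tp-BCC.

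**Figure D1:**
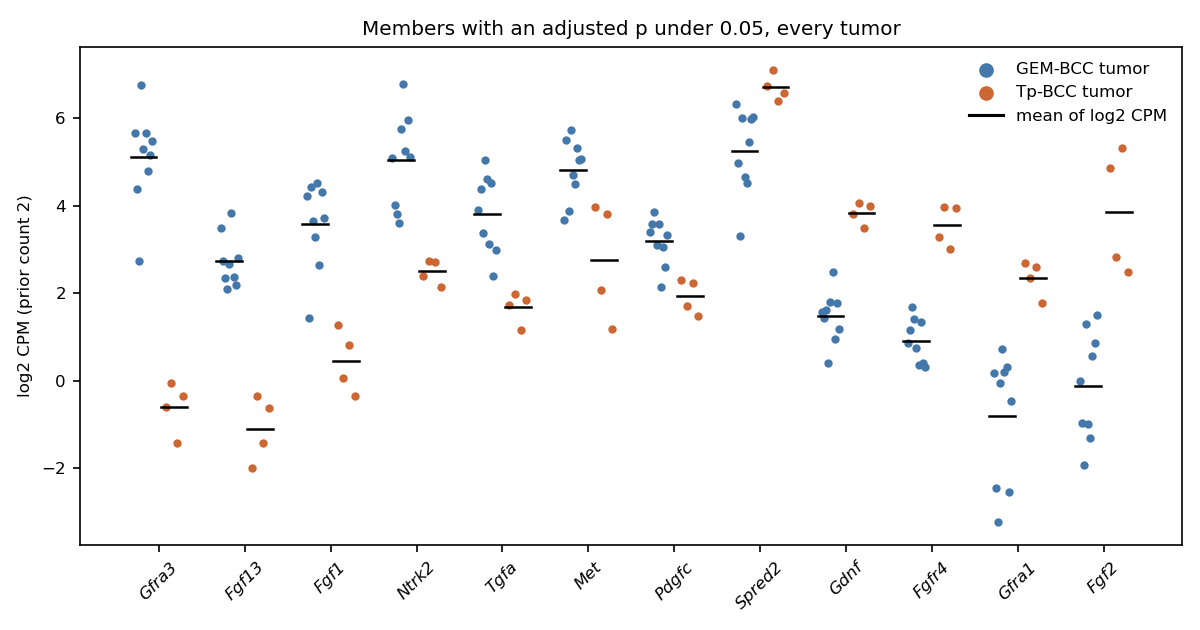
Log2 CPM of the 12 members with an adjusted p under 0.05 in each of 9 GEM-BCC and 4 Tp-BCC tumors (points), with the mean of log2 CPM as a bar. All Tp-BCC points lie beyond all GEM-BCC points except for Met and Pdgfc.

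Among the genes named Fgf, Fgf1, Fgf2 and Fgf13 separated the models, and not in the same direction. Fgf2, a heparin-binding ligand of several Fgf receptors, ranged from 0.190 CPM (GEM3) to 2.78 CPM (GEM9) in GEM-BCC, with a median of 0.920, and was 28.9, 7.01, 39.6 and 5.50 CPM in TP1 to TP4. Every Tp-BCC tumor was above every GEM-BCC tumor, with TP1 and TP3 far above TP2 and TP4. Fgf2 rose by 4.10 on the log2 scale (SE 0.65, adjusted p = 0.000626). Its log2 fold change was 2.41 (adjusted p = 0.0168) without TP1 and TP3 and 4.86 (adjusted p = 0.000822) without TP2 and TP4, with adjusted p over 28 alternatives of 2.12e-08 to 0.106.

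Fgf1, a ligand that binds all Fgf receptors, ranged from 2.62 CPM (GEM2) to 23.1 CPM (GEM6) in GEM-BCC, with a median of 13.1, and was 2.35, 0.964, 1.68 and 0.714 CPM in TP1 to TP4. The lowest GEM-BCC tumor was just above the highest Tp-BCC tumor, while GEM3 of the same mouse had 21.5 CPM. Fgf1 fell by 3.30 on the log2 scale (SE 0.57, adjusted p = 0.00122). Without TP1 and TP3 the log2 fold change of Fgf1 was −4.06 (adjusted p = 0.00157), with adjusted p over 28 alternatives of 1.05e-09 to 0.0533. Fgf13, an intracellular homolog that is not secreted and binds sodium channels, ranged from 4.22 CPM (GEM4) to 14.3 CPM (GEM6) with a median of 6.31 in GEM-BCC, and was 0.177, 0.707, 0.299 and 0.571 CPM in TP1 to TP4. Those Tp-BCC values rest on 3 to 11 counts per tumor. Fgf13 fell by 4.02 on the log2 scale (SE 0.52, adjusted p = 0.000103), and the 2 ranges were apart. Leaving out TP2 and TP4 gave Fgf13 a log2 fold change of −4.88 (adjusted p = 0.00115), with adjusted p over 28 alternatives of 1.69e-15 to 0.0382.

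Fgf7 and Fgf10, made by mesenchyme and read by epithelium, did not pass. Fgf7 was at 1.02 to 4.90 CPM in GEM-BCC and 0.386 to 2.39 CPM in Tp-BCC, and its log2 fold change was −1.20 (SE 0.55, adjusted p = 0.136). Without TP3, the Tp-BCC tumor with the highest level, the log2 fold change of Fgf7 was −1.89 (adjusted p = 0.0391), where the adjusted p over 28 alternatives was 0.0391 to 0.562. Fgf10 was at 4.25 to 10.1 CPM in GEM-BCC and 3.14 to 8.92 CPM in Tp-BCC. Fgf18 had at most 5 counts in any tumor and Fgf22 at most 3 counts in GEM-BCC tumors with no value in Tp-BCC, so neither could be tested.

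Of the Fgf receptors only Fgfr4 passed. Fgfr4, the receptor that works with the co-receptor Klb in liver, was at 1.16 (GEM9) to 3.13 CPM (GEM3) in GEM-BCC with a median of 1.74, and at 9.65, 15.6, 8.02 and 15.4 CPM in TP1 to TP4. All 4 Tp-BCC tumors were above all GEM-BCC tumors, with TP2 and TP4 the higher pair. The transcripts of Fgfr4 have a GC content of 58.8%. After GC correction TP1 to TP4 had 3.51, 3.46, 3.28 and 3.17 in log2 CPM, so TP2 and TP4 were no longer the higher pair. Fgfr4 rose by 2.66 on the log2 scale (SE 0.32, adjusted p = 5.35e-05), with adjusted p over 28 alternatives of 1.37e-13 to 0.0982. Per length of transcript it stayed far below the other Fgf receptors, at 0.577 CPM per kb in GEM-BCC and 3.65 CPM per kb in Tp-BCC. Fgfr2, the main Fgf receptor of epithelium, had 198 and 180 CPM per kb, Fgfr1 91.6 and 126, and Fgfr3 82.3 and 50.2.

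Fgfr3 was at 82.9 to 288 CPM in GEM-BCC and at 80.8, 147, 94.3 and 207 CPM in TP1 to TP4, and its log2 fold change was −0.71 (SE 0.31, adjusted p = 0.121). After correction for GC content the log2 fold change of Fgfr3 was −1.06 (adjusted p = 0.0116). It was −0.87 (adjusted p = 0.0279) without GEM3, the lowest GEM-BCC tumor, −1.07 (adjusted p = 0.0429) without TP4 and −1.31 (adjusted p = 0.0448) without TP2 and TP4. Over 28 alternatives the adjusted p was 0.0116 to 0.712. Fgfr1 was at 202 to 519 CPM in GEM-BCC and 336 to 623 CPM in Tp-BCC, and Fgfr2 at 234 to 691 CPM and 201 to 502 CPM. Fgfrl1, a receptor without a kinase domain, was at 24.7 to 101 CPM and 34.4 to 87.4 CPM. Fgfbp1, which releases Fgf ligands from matrix, had the highest level per length of all 46 genes in GEM-BCC, 309 CPM per kb, and 201 CPM per kb in Tp-BCC, where Pdgfa was higher with 229 CPM per kb.

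Among 7 Egf family ligands Tgfa passed. Tgfa, a ligand of Egfr made by keratinocytes, was at 5.17 (GEM8) to 33.1 CPM (GEM4) in GEM-BCC with a median of 14.99, and at 3.24, 3.86, 2.15 and 3.50 CPM in TP1 to TP4. All Tp-BCC tumors were below all GEM-BCC tumors. Tgfa fell by 2.37 on the log2 scale (SE 0.49, adjusted p = 0.00384), with adjusted p over 28 alternatives of 1.95e-06 to 0.0449. GEM7 and GEM8 of 1 mouse had 22.9 and 5.17 CPM.

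The other Egf family ligands were low in both models. Hbegf was at 2.47 to 5.54 CPM in GEM-BCC and 4.85 to 6.22 CPM in Tp-BCC, and Egf at 1.41 to 3.16 CPM and 0.0714 to 1.74 CPM. Nrg1, a ligand of Erbb3, was at 0.0659 to 1.65 CPM and 0.357 to 0.718 CPM, and Btc, a ligand of Egfr, at 0 to 0.478 CPM and 0 to 0.239 CPM. Areg had at most 13 counts in any tumor and was not tested, and Ereg reached 13 counts in GEM6 with no value in Tp-BCC. The receptors Egfr, Erbb2 and Erbb3 all overlapped between models and did not pass. Egfr was at 90.9 to 355 CPM in GEM-BCC and at 203, 141, 217 and 60.9 CPM in TP1 to TP4, so that TP4 was below every GEM-BCC tumor and the remaining Tp-BCC tumors were within their range. Erbb2 ran the other way within Tp-BCC, with 93.1, 174, 82.8 and 222 CPM. The transcripts of Egfr have a GC content of 48.6% and those of Erbb2 of 57.3%. Erbb3 was at 14.8 to 90.2 CPM and 31.9 to 55.9 CPM.

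**Figure D2:**
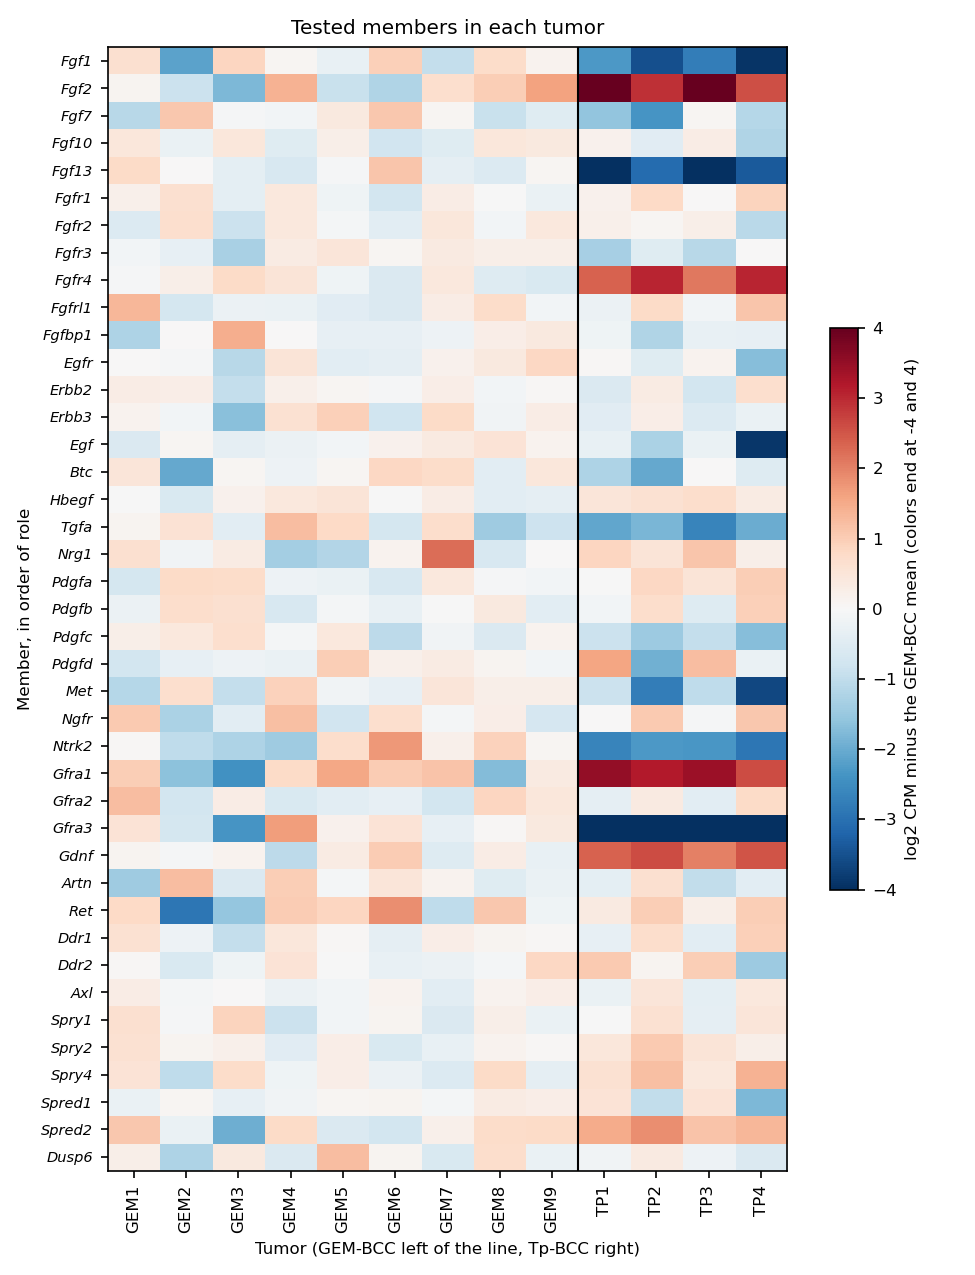
Log2 CPM of the 41 tested members minus the GEM-BCC mean of each gene, for 13 tumors, with colors that end at −4 and 4. Gfra3, Fgf13, Fgf1 and Ntrk2 are blue and Fgf2, Fgfr4, Gfra1 and Gdnf red in all 4 Tp-BCC tumors, while Spred1, Egfr and Ddr2 differ between the Tp-BCC tumors.

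Pdgf ligands signal to mesenchymal cells. Pdgfc was at 4.34 (GEM6) to 14.3 CPM (GEM3) in GEM-BCC with a median of 9.96, and at 4.89, 3.21, 4.61 and 2.71 CPM in TP1 to TP4. The Tp-BCC tumors TP1 and TP3 were within the GEM-BCC range, above GEM6. Its log2 fold change was −1.30 (SE 0.34, adjusted p = 0.0150). Without TP2 and TP4 the log2 fold change of Pdgfc was −1.01 (adjusted p = 0.136), and without TP2 alone −1.25 (adjusted p = 0.0523). Over 28 alternatives the adjusted p was 0.000626 to 0.190. Pdgfa, the best expressed Pdgf ligand with 157 and 229 CPM per kb in the models, was at 131 to 364 CPM in GEM-BCC and 211 to 426 CPM in Tp-BCC. Pdgfb was at 36.4 to 91.8 CPM and 40.3 to 110 CPM. Pdgfd was at 0.394 to 1.46 CPM in GEM-BCC and at 2.24, 0.129, 1.74 and 0.571 CPM in TP1 to TP4.

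Met, the receptor of Hgf, was at 12.7 (GEM1) to 53.4 CPM (GEM4) in GEM-BCC with a median of 32.98, and at 15.6, 4.11, 13.9 and 2.21 CPM in TP1 to TP4. TP2 and TP4 were below every GEM-BCC tumor, while TP1 and TP3 were above GEM1. Met fell by 1.79 on the log2 scale (SE 0.51, adjusted p = 0.0240). Without TP2 and TP4 the log2 fold change of Met was −1.08 (adjusted p = 0.170), without TP2 alone −1.57 (adjusted p = 0.0818) and without TP4 alone −1.49 (adjusted p = 0.0613). It was −3.29 (adjusted p = 0.000843) without TP1 and TP3. Its adjusted p over 28 alternatives was 0.000843 to 0.447. Hgf itself had at most 46 counts, in GEM1, and too few tumors with 10 counts to be tested.

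The neurotrophic genes held the largest fold among the members. Gfra3, the co-receptor through which artemin signals, was at 6.61 (GEM3) to 109 CPM (GEM4) in GEM-BCC with a median of 39.0, and at 0.589, 0.900, 0.299 and 0.714 CPM in TP1 to TP4, which were 5 to 14 counts. Every Tp-BCC tumor was below every GEM-BCC tumor. Gfra3 fell by 6.09 on the log2 scale (SE 0.71, adjusted p = 4.08e-05), with adjusted p over 28 alternatives of 9.86e-27 to 0.0103.

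Gfra1, the co-receptor of Gdnf, moved the other way. It was at 0.0316 (GEM3) to 1.57 CPM (GEM5) in GEM-BCC with a median of 0.890, and at 6.42, 5.01, 5.98 and 3.36 CPM in TP1 to TP4. All Tp-BCC tumors were above all GEM-BCC tumors, of which GEM2, GEM3 and GEM8 had 1 to 3 counts. Gfra1 rose by 2.80 on the log2 scale (SE 0.66, adjusted p = 0.00861). Without TP1 and TP3 and with GC correction the log2 fold change of Gfra1 was 1.81 (adjusted p = 0.138), where the adjusted p over 28 alternatives was 0.000594 to 0.138.

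Gdnf, the ligand of Gfra1, was higher in the same tumors. It was at 1.25 (GEM4) to 5.56 CPM (GEM6) in GEM-BCC with a median of 2.89, and at 14.1, 16.8, 11.1 and 15.9 CPM in TP1 to TP4. The models did not overlap. Gdnf rose by 2.31 on the log2 scale (SE 0.32, adjusted p = 0.000181), with adjusted p over 28 alternatives of 1.98e-10 to 0.0668. Artn, which encodes artemin, was at 0.427 to 3.05 CPM in GEM-BCC and 0.598 to 1.99 CPM in Tp-BCC.

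Ret, the kinase that Gfra co-receptors share, varied most within GEM-BCC among the tested members. Its log2 CPM had an SD of 1.54 over GEM-BCC tumors and 0.41 over Tp-BCC tumors. Ret was at 2.29 CPM in GEM2, 5.85 in GEM3 and 8.46 in GEM7, against 63.6 in GEM6, and at 22.0, 34.1, 20.1 and 34.8 CPM in TP1 to TP4. Tumors of 1 mouse differed in Ret by 2.12 on the log2 scale (GEM8 over GEM7). Gfra2, the co-receptor of neurturin, was the most abundant Gfra per length, with 171 and 172 CPM per kb in the models.

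Ntrk2, the receptor of Bdnf, was at 12.1 (GEM4) to 110 CPM (GEM6) in GEM-BCC with a median of 34.5, and at 5.18, 6.56, 6.52 and 4.35 CPM in TP1 to TP4. The highest Tp-BCC tumor was below the lowest GEM-BCC tumor. Ntrk2 fell by 2.88 on the log2 scale (SE 0.57, adjusted p = 0.00312), with adjusted p over 28 alternatives of 1.36e-07 to 0.144. Ngfr, which binds all neurotrophins, was at 44.8 to 247 CPM in GEM-BCC and 104 to 226 CPM in Tp-BCC and did not pass.

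**Figure D3:**
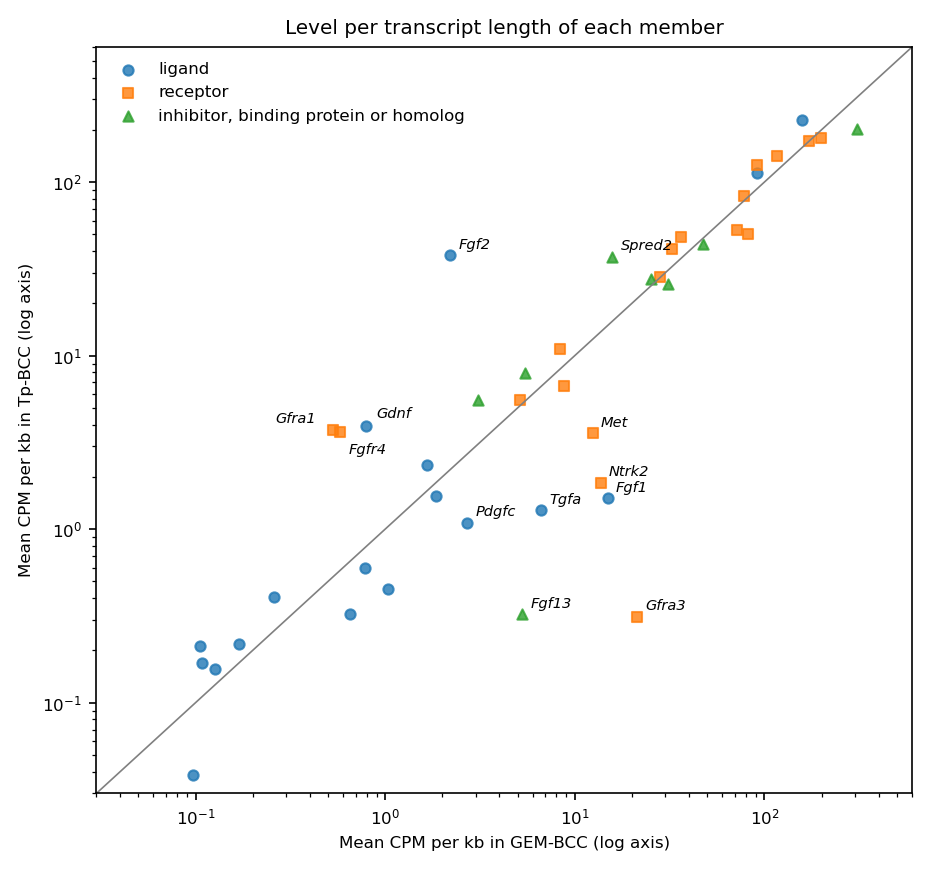
Mean CPM per kb of median transcript length in GEM-BCC (horizontal) and Tp-BCC (vertical) on log axes, for the 44 members with a value in both models, with the line of equal levels and names for members with an adjusted p under 0.05. Gfra3 went from 21.4 to 0.313 CPM per kb and Gfra1 from 0.532 to 3.74.

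Axl, Ddr1 and Ddr2, receptors of Gas6 and of collagens, did not pass. In log2 CPM Axl had the smallest GEM-BCC spread of the 3 (SD 0.24, against 0.47 for Ddr1 and 0.44 for Ddr2), with 223 to 366 CPM in GEM-BCC and 231 to 420 CPM in Tp-BCC. Ddr1 was at 111 to 328 CPM and at 172, 348, 162 and 414 CPM in TP1 to TP4. The transcript GC content of Ddr2 is 48.2%, against 59.7% for Ddr1. Ddr2 was at 91.6, 47.6, 88.5 and 16.3 CPM in TP1 to TP4. TP1 and TP3 were thus above TP2 and TP4 in Ddr2 and below them in Ddr1.

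Feedback inhibitors are commonly read as a sign of pathway output, but pathway activity was not measured here. Of 6 such members only Spred2, an inhibitor of Raf activation, passed. It was at 9.83 (GEM3) to 80.6 CPM (GEM1) in GEM-BCC with a median of 44.0, and at 106, 139, 84.6 and 95.8 CPM in TP1 to TP4. The lowest Tp-BCC tumor was only slightly above the highest GEM-BCC tumor. Spred2 rose by 1.23 on the log2 scale (SE 0.40, adjusted p = 0.0418). With library size alone the log2 fold change of Spred2 was 1.16 (adjusted p = 0.0582). It passed in 6 of 13 fits that left out 1 tumor, and did not without GEM2, GEM5, GEM6, GEM7, TP1, TP2 or TP4, with adjusted p of 0.0635 (GEM7) to 0.133 (TP2). With TP2 and TP4 both left out it was 1.08 (adjusted p = 0.197). Over 28 alternatives the adjusted p was 0.0214 to 0.263.

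Spry4 was at 6.65 to 23.0 CPM in GEM-BCC and 18.1 to 35.5 CPM in Tp-BCC, with a log2 difference of 0.85 (SE 0.32, adjusted p = 0.0741). The log2 fold change of Spry4 was 0.90 after GC correction (adjusted p = 0.0487), 0.87 with counts summed per mouse (adjusted p = 0.0292) and 1.19 without TP1 and TP3 (adjusted p = 0.0224), with adjusted p over 28 alternatives of 0.0224 to 0.547. Spry2 was at 7.18 to 16.9 CPM and 12.99 to 22.7 CPM, with a log2 difference of 0.55 (SE 0.25, adjusted p = 0.134). After GC correction the log2 fold change of Spry2 was 1.09 (adjusted p = 0.0194), with adjusted p over 28 alternatives of 0.00227 to 0.699. Spry1 was at 31.9 to 110 CPM and 45.6 to 89.5 CPM, and Dusp6, a phosphatase of Erk, at 30.0 to 167 CPM and 47.3 to 91.9 CPM. Spred1 had the smallest spread of log2 CPM in GEM-BCC among the tested members (SD 0.22) but an SD of 1.16 in Tp-BCC, with 255, 89.5, 258 and 50.7 CPM in TP1 to TP4. The GC content of its transcripts is 41.8%.

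**Figure D4:**
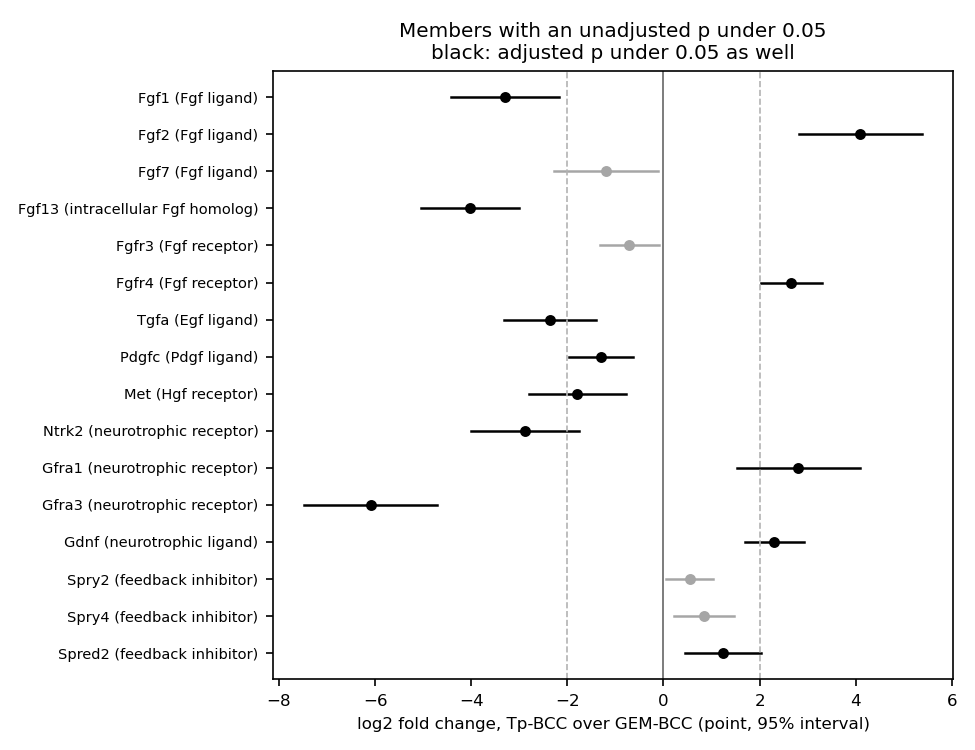
Log2 fold change (Tp-BCC over GEM-BCC) of the 16 members with an unadjusted p under 0.05, with an approximate 95% interval from a normal quantile. Members are black where the adjusted p is also under 0.05 and grey otherwise, and dashed lines lie at −2 and 2. Gfra3 lies farthest from 0, at −6.09.

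Other genes of these pathways were read from 5 lists with 101 genes, of which 83 were tested. Over the lists 11 genes (13.3%) passed higher and 7 (8.43%) lower, beside 11.1% and 8.35% of all tested genes. Without TP2 they were 6 and 4, where 874 and 674 of all genes passed in place of 1591 and 1201. Without TP4 they were 7 and 4, beside 973 and 863 of all genes, and without both 4 and 3, beside 839 and 645. Without TP1 and TP3 they were 15 and 18, beside 2721 and 3398 of all genes (10 and 12 with GC correction, beside 2265 and 2033). With GC correction alone they were 11 and 14, beside 2167 and 1913, and with DESeq2 12 and 12, beside 1883 and 1860. Over the 13 fits that left out 1 tumor, 874 to 1706 of all genes passed higher and 674 to 1403 lower. Other ligands of the same families, listed with the intracellular homologs Fgf11, Fgf12 and Fgf14, had 3 of 14 higher and 4 of 14 lower, with a median of −0.67. These counts were 2 and 2 without TP1 or TP2, 1 and 2 without TP4 or without TP1 and TP3, and 0 and 1 in edgeR without TP2 and TP4, where 3 had an unadjusted p under 0.05 in each direction, and a stricter filter gave 2 and 2. They were 1 and 1 without TP2 and TP4 with GC correction, and 5 and 4 of 23 without a filter. Of the 4 lower genes Fgf9 and Fgf16 reached 10 counts in GEM-BCC tumors alone. Fgf16 had 0 or 1 counts in Tp-BCC and up to 25 in GEM-BCC and was at least 2.24-fold lower in mean CPM, with 3 counts per library as the floor. It did not pass without TP2 and TP4 (adjusted p = 0.111). Fgf9 was at 0.0989 (GEM4) to 8.17 CPM (GEM5) in GEM-BCC and at 0.235, 0, 0.120 and 0.0714 CPM in TP1 to TP4, which were 0 to 4 counts, with 3 of the 4 at or below that floor. The models overlapped, since GEM4 was below TP1 and TP3. Its fitted log2 fold change of −4.24 (SE 1.37, adjusted p = 0.0407) therefore rests on few counts. The log2 fold change of Fgf9 did not pass without GEM3, GEM5, GEM8 or any Tp-BCC tumor, with adjusted p of 0.0512 (GEM8) to 0.112 (TP2). It was −3.61 without GEM5, −4.96 without TP1, −3.57 without TP2 and TP4 (adjusted p = 0.230) and −5.79 without TP1 and TP3 (adjusted p = 0.0598), and over 27 alternatives the adjusted p was 0.000998 to 0.232. Ntf5 and Pros1, named after their values were seen, were better measured. Ntf5, a neurotrophin that binds Ntrk2, was at 37.0 to 77.8 CPM in GEM-BCC and at 20.8, 35.2, 20.3 and 39.5 CPM in TP1 to TP4, with overlap through TP4, and fell by 0.95 on the log2 scale (SE 0.26, adjusted p = 0.0183). This change was −0.82 without TP1 (adjusted p = 0.0577) and −0.58 without TP1 and TP3 (adjusted p = 0.108), with adjusted p over 28 alternatives of 0.000580 to 0.287. Pros1, a ligand of Tyro3 and Mertk, was at 25.2 to 85.6 CPM in GEM-BCC and at 28.4, 11.3, 28.8 and 7.71 CPM in TP1 to TP4, with TP1 and TP3 inside the GEM-BCC range, and fell by 1.44 (SE 0.40, adjusted p = 0.0209). This change was −1.29 without TP2 (adjusted p = 0.0798), −1.21 without TP4 (adjusted p = 0.0645) and −0.86 without both (adjusted p = 0.193). With TP1 and TP3 left out it was −2.44 (adjusted p = 0.00117), and −1.06 with GC correction as well (adjusted p = 0.0521), with adjusted p over 28 alternatives of 0.00117 to 0.397.

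Epgn, an Egfr ligand, rose by 2.59 (SE 0.76, adjusted p = 0.0273), Mst1, the ligand of Mst1r, by 2.08 (SE 0.42, adjusted p = 0.00320) and Ntf3, the ligand of Ntrk3, by 1.76 (SE 0.51, adjusted p = 0.0247). The models overlapped in Epgn, where GEM-BCC tumors had 1 to 84 counts while Tp-BCC tumors had 15 to 102, and not in Mst1 (5 to 27 and 20 to 37 counts, or 0.162 to 0.859 and 1.18 to 2.38 CPM) or Ntf3. The log2 fold change of Epgn did not pass without TP1 (adjusted p = 0.0555), TP3 (0.0617) or TP4 (0.0720), and the log2 fold change of Ntf3 did not without TP2 (0.0616) or TP4 (0.0635). Epgn was at 3.19 without GEM6 (adjusted p = 0.00748). Leaving out TP2 and TP4 gave log2 fold changes of 2.96 for Epgn (adjusted p = 0.0575), 1.67 for Mst1 (adjusted p = 0.0635) and 1.79 for Ntf3 (adjusted p = 0.106). Leaving out TP1 and TP3 gave 2.05 for Epgn (adjusted p = 0.110) and 1.73 for Ntf3 (adjusted p = 0.0510). Over the alternatives the adjusted p was 0.00748 to 0.110 for Epgn, 0.000125 to 0.130 for Mst1 and 0.00652 to 0.432 for Ntf3.

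Other receptors and co-receptors had 3 of 15 higher (background 11.1%) and 2 of 15 lower (background 8.35%), with a median of −0.36. They were 2 and 1 without GEM7, TP2 or TP4, with library size alone or with counts summed per mouse, and 1 and 0 in edgeR without TP2 and TP4, where 5 lower genes had an unadjusted p under 0.05 (2 and 1 with GC correction). Pdgfra, the Pdgf receptor of fibroblasts, was at 181 to 399 CPM in GEM-BCC and at 1562, 750, 1552 and 245 CPM in TP1 to TP4, so that TP4 lay within the GEM-BCC range. It rose by 2.14 on the log2 scale (SE 0.35, adjusted p = 0.000746). Its log2 fold change was 1.10 (adjusted p = 0.0192) without TP1 and TP3 and 2.73 (adjusted p = 4.01e-05) without TP2 and TP4, with adjusted p over 28 alternatives of 9.15e-07 to 0.156. Pdgfrb, the Pdgf receptor of pericytes, rose by 1.25 (SE 0.25, adjusted p = 0.00306) with no overlap, and without TP2 and TP4 the log2 fold change of Pdgfrb was 0.69 (adjusted p = 0.101, range over alternatives 0.000117 to 0.267). Gpc3, a heparan sulfate proteoglycan, fell by 1.89 (SE 0.42, adjusted p = 0.00618), Flrt3 fell by 1.45 (SE 0.45, adjusted p = 0.0333) and Flrt1 rose by 1.73 (SE 0.58, adjusted p = 0.0478). The models did not overlap in Gpc3 but did in Flrt3 and Flrt1. Flrt1 passed in only 6 of 28 alternatives and in 3 of 13 fits that left out 1 tumor, those without GEM1, GEM3 or GEM9, with an adjusted p of up to 0.132 (without TP2). The log2 fold change of Flrt3 did not pass without GEM7 (adjusted p = 0.0504), TP2 (0.0812) or TP4 (0.0987), with library size alone (0.0607) or with counts summed per mouse (0.0624). Without TP2 and TP4 the log2 fold change was −1.64 for Gpc3 (adjusted p = 0.0797) and −0.71 for Flrt3 (adjusted p = 0.153), and Flrt1 had an adjusted p of 0.291. Without TP1 and TP3 it was −3.10 for Flrt3 (adjusted p = 0.000107), and with GC correction as well −1.33 for Gpc3 (adjusted p = 0.0868) and 1.70 for Flrt1 (adjusted p = 0.103). Over 28 alternatives the adjusted p was 2.07e-05 to 0.166 for Gpc3, 0.000107 to 0.211 for Flrt3 and 0.0200 to 0.291 for Flrt1.

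Of the 24 adaptor, Ras, Raf, Mek and Erk genes 0 passed in edgeR with all tumors and TMM factors, where 4 had an unadjusted p under 0.05, and their median was 0.04. Other fits did call some. With DESeq2 2 passed, both lower, with GC correction 4 lower and with library size alone 1 lower. Without GEM1 there was 1 higher, and without TP1, TP3, or TP2 and TP4 there were 1 higher and 1 lower. Without TP1 and TP3 there were 5 higher and 8 lower, in a fit where 2721 and 3398 of all genes passed in place of 1591 and 1201 (1 and 3 with GC correction). Of 18 other inhibitors 2 passed higher (background 11.1%) and 1 lower (background 8.35%), with a median of 0.01. Higher ones were 1 without GEM7 or TP4 or with counts summed per mouse, and 0 in edgeR without TP2 (2 by unadjusted p) or without TP2 and TP4 (1 by unadjusted p, and 3 with GC correction), and 1 without TP1 and TP3 with GC correction. Lower ones were 2 without GEM3 or TP1, 3 without TP3 or with DESeq2, and 4 with GC correction, without TP1 and TP3, or with both of these changes. Dusp5, a nuclear phosphatase of Erk, fell by 1.94 (SE 0.45, adjusted p = 0.00812), while Dusp4 rose by 0.94 (SE 0.28, adjusted p = 0.0285) and Dusp7 by 0.85 (SE 0.22, adjusted p = 0.0144). The models did not overlap in Dusp5 but did in Dusp4 and Dusp7. The log2 fold change of Dusp4 did not pass without GEM7 (adjusted p = 0.0505), TP2 (0.107) or TP4 (0.0773), and the log2 fold change of Dusp7 did not without TP2 (0.0771) or TP4 (0.0706). With counts summed per mouse Dusp4 had an adjusted p of 0.0532. With TP2 and TP4 left out the log2 fold change was −2.62 for Dusp5 (adjusted p = 0.0158), 0.67 for Dusp4 (adjusted p = 0.228) and 0.25 for Dusp7 (adjusted p = 0.404). It was 0.61 for Dusp4 (adjusted p = 0.155) without TP1 and TP3 with GC correction. Over 28 alternatives the adjusted p was 4.13e-05 to 0.131 for Dusp5, 0.00466 to 0.377 for Dusp4 and 0.000247 to 0.433 for Dusp7.

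Of 12 transcriptional targets of Erk 3 passed, all higher, with a median of 0.12, and without TP1 and TP3 there were 2 higher and 1 lower. Etv1 rose by 2.25 (SE 0.53, adjusted p = 0.00872), Myc by 1.79 (SE 0.24, adjusted p = 0.000148) and Ccnd1 by 0.86 (SE 0.20, adjusted p = 0.00957), with overlap in Etv1 and none in Myc and Ccnd1. Without TP2 the log2 fold change of Ccnd1 was 0.71 (adjusted p = 0.0528), and without TP1 and TP3 the log2 fold change of Etv1 was 1.23 (adjusted p = 0.148). Leaving out TP2 and TP4 gave 0.46 for Ccnd1 (adjusted p = 0.174) and 2.84 for Etv1 (adjusted p = 0.00905). Over 28 alternatives the adjusted p was 0.000671 to 0.496 for Ccnd1, 0.000781 to 0.148 for Etv1 and 2.20e-09 to 0.144 for Myc. The other 9, with Etv4, Etv5, Egr1 and Fos among them, did not pass.

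Promoter sequence was compared for members that moved in the same direction. The RefSeq promoter table (GRCm38.p6) matched 35 of the 46 genes by symbol, and 10 of the 12 that passed. The 250 bases before the start were searched on both strands. The GC box GGGCGG was held before at least 1 listed start by 20 of the 35 genes and by 35.4% of all 27025 genes in that table, over windows of the same length. The TATA box TATAAA was held by 4 of the 35 and by 14.3% of all genes. The motif of Gli factors, GACCACCCA, was in 0 of the 35 and in 0.255% of all genes. Such a match is a description of letters and not of binding. Capitals mark the GC and TATA boxes in the promoters of Fgf2, Fgfr4, Gfra1 and Gdnf, which were higher in Tp-BCC, and of Tgfa and Ntrk2, which were lower. Gdnf has 2 listed starts, of which the upstream one is shown, with its TATA box 31 bases before the start.
Fgf2, chr3:37348403-37348652, plus strand: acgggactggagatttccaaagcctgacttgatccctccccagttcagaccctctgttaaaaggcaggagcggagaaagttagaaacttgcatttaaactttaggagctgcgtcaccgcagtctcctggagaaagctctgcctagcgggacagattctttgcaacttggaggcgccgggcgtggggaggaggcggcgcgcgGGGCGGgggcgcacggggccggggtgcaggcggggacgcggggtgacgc
Fgfr4, chr13:55152568-55152817, plus strand: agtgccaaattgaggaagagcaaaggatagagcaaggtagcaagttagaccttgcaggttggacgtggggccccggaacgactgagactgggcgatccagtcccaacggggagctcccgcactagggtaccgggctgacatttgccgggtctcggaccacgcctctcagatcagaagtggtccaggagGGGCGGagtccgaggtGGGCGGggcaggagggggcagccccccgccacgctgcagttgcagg
Gfra1, chr19:58455399-58455648, minus strand: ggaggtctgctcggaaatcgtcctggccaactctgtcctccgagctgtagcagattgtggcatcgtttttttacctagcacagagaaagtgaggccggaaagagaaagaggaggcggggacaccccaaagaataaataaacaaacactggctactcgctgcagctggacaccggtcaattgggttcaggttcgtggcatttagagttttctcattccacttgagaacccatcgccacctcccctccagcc
Gdnf, chr15:7809798-7810047, plus strand: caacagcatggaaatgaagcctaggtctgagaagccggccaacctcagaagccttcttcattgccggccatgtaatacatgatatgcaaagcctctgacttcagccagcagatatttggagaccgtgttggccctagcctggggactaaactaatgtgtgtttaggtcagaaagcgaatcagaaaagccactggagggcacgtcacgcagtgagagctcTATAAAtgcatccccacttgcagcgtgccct
Tgfa, chr6:86194972-86195221, plus strand: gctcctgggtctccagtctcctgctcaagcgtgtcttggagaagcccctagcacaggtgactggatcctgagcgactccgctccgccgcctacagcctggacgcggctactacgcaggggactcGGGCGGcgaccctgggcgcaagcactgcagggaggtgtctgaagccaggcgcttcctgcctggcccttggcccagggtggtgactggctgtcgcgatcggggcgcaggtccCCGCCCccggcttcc
Ntrk2, chr13:58806319-58806568, plus strand: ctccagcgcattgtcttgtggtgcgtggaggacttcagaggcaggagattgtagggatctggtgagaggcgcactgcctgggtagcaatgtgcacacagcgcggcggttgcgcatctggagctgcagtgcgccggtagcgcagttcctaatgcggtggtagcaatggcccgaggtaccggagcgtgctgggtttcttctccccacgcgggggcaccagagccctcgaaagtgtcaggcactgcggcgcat

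The promoters of Gfra1 and Gdnf, a receptor and its ligand, hold no GC box in this window, and those of Fgf2 and Fgfr4 hold 1 and 2. Tgfa holds 2 and Ntrk2 none, so that promoters with and without a GC box are found among higher and lower members. Position on the chromosome was described by the median log2 fold change, after GC correction, of the 20 tested genes nearest to a member in RefSeq order. For the 12 members that passed, this median was −0.55 (Fgf13, chromosome X) to 0.13 (Met, chromosome 6).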

How the data were processed

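RNA of 9 GEM-BCC and 4 Tp-BCC tumors was sequenced with 1 library per tumor. The authors cleaned reads with SOAPnuke, aligned them with Bowtie2 2.3.4.3 to transcripts of GRCm39 and deposited RSEM 1.3.1 expected counts per gene, not normalized. Members and gene lists were chosen with earlier results of these data known. Here these values were rounded (R 4.3.3) and compared with edgeR 4.0.16 (TMM, robust quasi-likelihood F test, 2-sided, no covariate). A gene entered the test if no tumor lacked a value (13 tumors) and 4 or more tumors reached 10 counts. Benjamini-Hochberg adjustment ran over 14390 genes. SE is the size of the log2 fold change over the square root of F. Intervals are the fold plus or minus the SE times a normal quantile, so they are narrower than the F test would give. Tumor values are given for members with an adjusted p under 0.05 or no overlap. Outside that rule, values of all 4 Tp-BCC tumors are also given for Fgfr3, Egfr, Erbb2, Pdgfd, Ret, Ddr1, Ddr2 and Spred1. From each pathway list at most 5 genes that passed are named. Ntf5, Pros1 and marker genes were named after their values were seen. Folds of 25 other members are not reported. Length and GC content are medians over protein-coding transcripts of GENCODE vM21 (GRCm38), and GC content was known for 97.9% of tested genes. GC correction removed a lowess trend (span 0.3) per tumor. Alternatives were DESeq2 1.42.0, DESeq2 size factors or library size alone, no filter or a stricter one, counts summed per mouse, thinned counts, GC correction, missing values set to 0, a replicate block and each tumor left out. Fits without TP2 and TP4 or without TP1 and TP3, and the block with GC correction, were chosen after seeing the data. The fit was tested on simulated data.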

Additional observations from a re-analysis of the deposited data

Results flagged for a closer look

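Of 82 sets of tumors (41 tested members in each of 2 models), 5 held a tumor far from the others by Dixon's gap over range, where chance flags about 1 in 20. In log2 CPM, GEM3 was lowest in Fgfr3 (6.37, nearest 7.35) and in Erbb2 (6.14, nearest 7.01). GEM2 was lowest in Btc (−3.73, nearest −2.09), with 0 counts. TP4 was lowest in Fgfr2 (7.65, nearest 8.81) and TP2 in Fgfbp1 (7.19, nearest 8.07).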

How the results depend on the processing

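Of 12 members that passed, Fgf13, Tgfa and Gfra3 did so in all 28 alternatives, and no fold reported for a member reversed; Fgf1, Fgf2, Fgfr4, Gdnf and Ntrk2 missed the threshold in fits with the replicate block alone. Main counts were 5 members higher and 7 lower (4 and 5 with the fold threshold), and 11 and 7 list genes. Numbers shared by GEM1 to GEM4 and TP1 to TP4 are only tumor numbers: deviations of tumors with the same number correlated at −0.381, −0.122, −0.101 and −0.179. With this replicate block in edgeR 0 members passed higher and 3 lower (0 and 3 with the fold threshold), with 5 and 6 by unadjusted p, and 0 and 0 list genes, with 8 and 7 by unadjusted p; over all 14390 genes 106 and 72 passed. DESeq2 without the block gave 5 and 7 members and 12 and 12 list genes. With block and GC correction 2 members passed higher and 4 lower (2 higher with the fold threshold), and 2 and 2 list genes, beside 245 and 192 of all genes. List genes lower were 14 with GC correction, where 1913 of all genes were lower in place of 1201. Leaving out 1 tumor gave 4 to 5 members higher and 5 to 8 lower (4 and 5 to 6 with the fold threshold), 6 to 12 list genes higher (6 without TP2, 7 without TP4) and 4 to 9 lower (4 without TP2 or TP4). Added after the data were seen, fits without TP2 and TP4 gave 4 list genes higher and 3 lower (5 and 3 with GC correction), and fits without TP1 and TP3 gave 15 higher and 18 lower, beside 2721 and 3398 of all genes (10 and 12 with GC correction, beside 2265 and 2033). The causes were not tested. Folds of 25 members are not reported: 18 changed sign and 4 passed in at least 1 alternative. Tp-BCC depth limits Fgf13 and Gfra3, which had 14 counts or fewer there.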
